A study of Mus musculus with 32 samples.

Results

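The 10 genes followed here serve as markers of neutrophils, monocytes and macrophages in mouse epidermis: Lyz2, Csf3r, Cxcr2, Itgam, Ly6c2, Ccr2, Adgre1, Cd14, Fcgr3 and Clec4e. They were matched by symbol among 55401 counted gene identifiers, and all 10 passed the filter of at least 1 cpm (counts scaled to library size) in at least 1 mouse, as did 15546 genes in all. RNA was sequenced from the epidermis of 32 mice of the mixed SKH-1/SV129/BL6/J background, in which SKH-1 is a hairless stock, aged 10 to 14 weeks. The 4 groups of 8 mice, each with 4 females and 4 males, were WT Control, WT UV, KO Control and KO UV. WT mice were wild type and KO mice were littermates labelled Ppard-/- for the gene of the nuclear receptor PPARβ/δ. UV mice were killed 24 h after a single exposure to 120 mJ/cm2, and Control mice were handled in the same way without exposure. The epidermis was lifted from the dermis chemically before RNA extraction.

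Neutrophils and classical monocytes circulate in the blood and enter the skin within hours of an injury. Neutrophils follow CXC chemokines through the receptor CXCR2, depend on the growth factor CSF3 and adhere to vessels through the integrin αM/β2, and monocytes leave the marrow through CCR2 and can become F4/80-positive macrophages. Resting epidermis holds its own myeloid cell, the Langerhans cell, and CXCR2 has also been described on keratinocytes, so that none of these genes belongs to one cell type alone.

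The sequencing depth was 22919428 to 40653581 reads on genes per mouse. Ppard itself was still counted in KO mice, at 70.3 to 88.9 cpm in KO Control against 87.3 to 105 in WT Control and at 175 to 239 cpm in KO UV against 252 to 326 in WT UV. Counts per gene do not show which exons are missing, so the genotype is used here as labelled. One library stood apart. In the KO UV female 54F, 9 dermal fibroblast genes summed to 2264 cpm against 40.0 at most in the other 7 KO UV mice, and 24 other monocyte and macrophage genes summed to 2986 cpm against 547 at most. Values without that mouse are given beside those of the markers it moved most.

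The markers were set beside other genes used to define neutrophils. Elane, the neutrophil elastase of granule precursors, had no read in any of the 32 mice. Ly6g, the classical surface marker of mouse neutrophils, had no read in any of the 16 Control mice, was seen in 4 of 8 WT UV mice at 0.104 cpm at most and in 3 of 8 KO UV mice at 0.376 cpm at most, which is 9 reads. Ctsg, Prtn3, Camp, Ltf and Ngp, which encode granule proteins, were at 0.280 cpm at most in every mouse. Among 25 other neutrophil genes, 15 passed the filter. In WT mice 12 of these rose and 1 fell after UV, and in KO mice 14 rose and 1 fell. Of all genes 34.5% rose and 36.5% fell in WT mice, and 37.3% rose and 33.5% fell in KO mice. A gene scarce without UV can pass the filter through UV mice alone, which favours rises in this and later counts. Among these neutrophil genes, the strongest rises were those of S100a9, S100a8 and Trem1, and S100a8 and S100a9 are also made by stressed keratinocytes. Elane, Ly6g, Ctsg, Prtn3, Camp, Ltf and Ngp were named from the 25 after their values were seen. Their low counts therefore describe these genes only and do not show whether neutrophils were present. In such bulk samples fewer cells and less RNA per cell cannot be told apart.

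The upstream 250 bases of Ly6c2 and Clec4e are shown because among the markers that rose after UV these 2 hold a searched myeloid motif in a stretch free of annotated exons. Capitals mark the motif, the sequences are from RefSeq (GRCm38.p6), both genes lie on the minus strand, and each is written 5′ to 3′ in the direction of transcription. The Ly6c2 stretch is chr15:75111972-75112221 and the Clec4e stretch is chr6:123289872-123290121.
Ly6c2: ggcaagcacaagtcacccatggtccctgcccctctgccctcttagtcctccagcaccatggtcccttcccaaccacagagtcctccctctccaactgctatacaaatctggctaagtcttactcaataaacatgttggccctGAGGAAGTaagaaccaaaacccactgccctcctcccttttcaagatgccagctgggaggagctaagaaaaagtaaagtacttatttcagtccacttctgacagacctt
Clec4e: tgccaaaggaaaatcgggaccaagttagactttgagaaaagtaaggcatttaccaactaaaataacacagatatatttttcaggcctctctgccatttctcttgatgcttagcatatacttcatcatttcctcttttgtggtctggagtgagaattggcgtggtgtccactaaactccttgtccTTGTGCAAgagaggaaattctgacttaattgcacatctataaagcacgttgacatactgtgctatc

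The motifs were searched on both strands in windows of 300 bases, from 250 before to 50 after each start, and 8 of the 10 genes matched a window. GAGGAAGT, the core of PU.1 sites, lay in the windows of 1 member, Ly6c2, at -108 from the start, and in 3.202% of 32851 windows of all genes. TTGCNNAA, the form of C/EBP sites, lay in those of 2 members, Clec4e at -66 and Fcgr3 at -28, and in 10.797% of all windows. TGANTCA, the AP-1 site, lay in none of the 8 members' windows and in 7.808% of all windows. A match is a description of letters only.

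UV exposure raised most of these markers in WT epidermis. Of the 10, 7 rose (adjusted p under 0.05) and 0 fell, where 34.5% of all genes tested rose and 36.5% fell. In KO epidermis 8 rose and 1 fell, where 37.3% of all genes rose and 33.5% fell. Ly6c2, counted among the rises in both genotypes, passed the filter through UV mice only. The median log2 fold change of the 10 was 1.33 in WT mice and 2.33 in KO mice, and 1.76 in KO mice without 54F, beside medians of -0.01 and 0.09 over all genes. Csf3r and Cd14 were the markers for which every UV mouse lay above every Control mouse in WT mice, which holds for 21.3% of all genes. In KO mice this was so for Csf3r, Ly6c2, Cd14 and Clec4e, and for 18.6% of all genes.

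**Figure D1:**
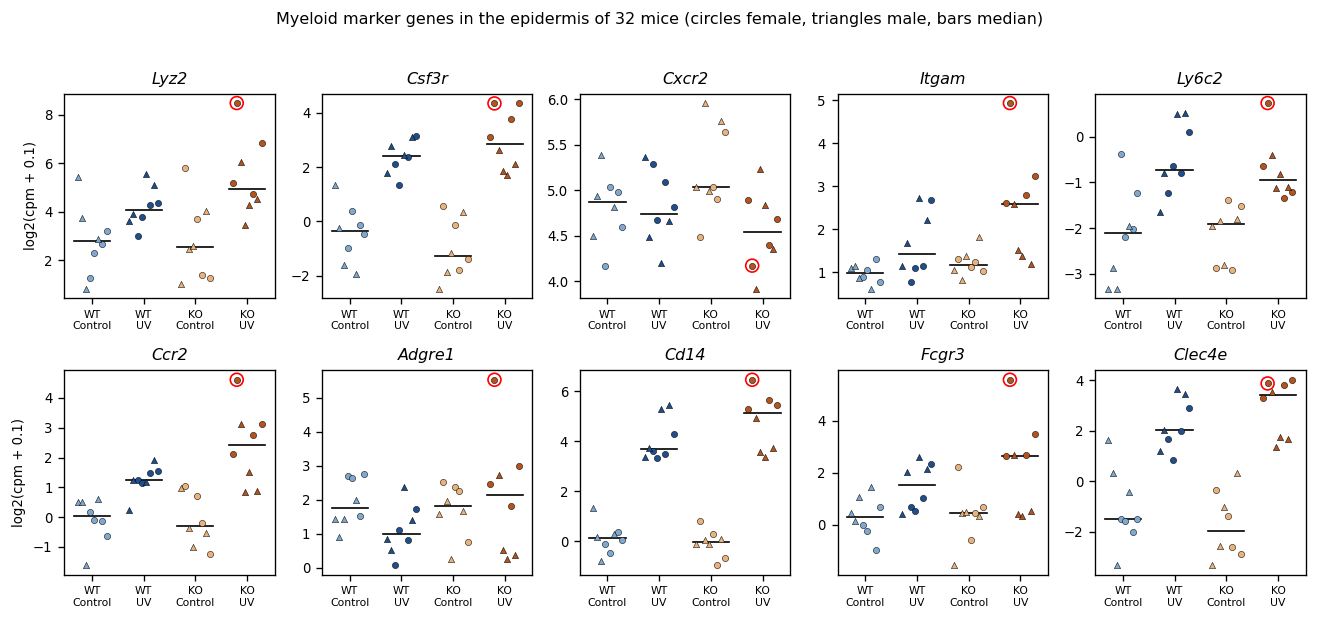
Level of each marker gene in the 32 mice, as log2 of cpm plus 0.1 on the vertical axis, by genotype and treatment on the horizontal axis. Circles are females, triangles males, bars the group medians and the red ring mouse 54F. Cd14 and Csf3r separate UV from Control mice in both genotypes, while Cxcr2 and Adgre1 overlap between all groups.

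Cd14 and Clec4e, which sense microbial and damage signals, had the largest estimates of the 10 in both genotypes. Cd14 (chr18:36725067-36726798, minus strand) encodes the co-receptor that hands lipopolysaccharide to TLR4. Its level was 0.488, 0.990 and 2.44 cpm (lowest, median and highest mouse) in WT Control and 10.1, 12.7 and 43.5 cpm in WT UV. In KO mice it was 0.416, 0.898 and 1.66 cpm in Control and 10.4, 35.1 and 88.3 cpm after UV. The groups did not overlap in either genotype, and the rise was 17.5-fold in WT mice (log2 fold change 4.13 ± 0.37, SE, adjusted p = 8.064e-11) and 32.9-fold in KO mice (5.04 ± 0.38, adjusted p = 3.543e-12).

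Clec4e (chr6:123281789-123289870, minus strand) encodes Mincle, a lectin that senses mycobacterial glycolipids and material of dead cells. WT Control mice had 0, 0.255 and 3.03 cpm and WT UV mice 1.69, 3.93 and 12.5 cpm. Mouse 43M was the high Control, and the next Control mouse, at 1.14 cpm, lay below every WT UV mouse. KO Control mice had 0, 0.178 and 1.15 cpm and KO UV mice 2.49, 10.6 and 16.1 cpm, with no overlap. The log2 fold change was 3.38 ± 0.66 in WT mice (adjusted p = 5.472e-05) and 4.61 ± 0.70 in KO mice (adjusted p = 1.298e-06), the latter 5.34 without the Control mouse 67M.

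Fcgr3 (chr1:171051174-171064935, minus strand) encodes a low-affinity receptor for IgG on myeloid and natural killer cells. Its levels were 0.408, 1.14 and 2.61 cpm in WT Control and 1.24, 2.99 and 5.96 cpm in WT UV, and the groups overlapped. KO Control mice had 0.240, 1.28 and 4.57 cpm and KO UV mice 1.16, 6.2 and 47.6 cpm, the last being 54F. It rose by a log2 fold change of 1.31 ± 0.51 in WT mice (adjusted p = 0.0242), a call lost without mouse 77F (1.01, adjusted p = 0.0851) or without 71F (1.20, adjusted p = 0.0501). In KO mice it rose by 2.24 ± 0.52 (adjusted p = 0.000404), and by 1.67 without 54F (adjusted p = 0.00250). KO males alone did not pass (1.317, adjusted p = 0.1215). Nor did WT females alone (1.46, adjusted p = 0.0885) or WT males alone (1.17, adjusted p = 0.160).

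Among the receptors that guide neutrophils, Csf3r and Cxcr2 behaved differently. Csf3r (chr4:126024550-126044440, plus strand) encodes the receptor for CSF3, the growth factor of neutrophils. It was measured at 0.159, 0.679 and 2.41 cpm in WT Control and 2.46, 5.23 and 8.87 cpm in WT UV, and at 0.0800, 0.318 and 1.37 cpm in KO Control and 3.19, 7.26 and 20.5 cpm in KO UV. No UV mouse overlapped the Control mice of its genotype, although in WT mice the highest Control (43M) and the lowest UV mouse nearly touched. The rise was 6.82-fold in WT mice (log2 fold change 2.77 ± 0.49, adjusted p = 1.444e-05) and 14.6-fold in KO mice (3.87 ± 0.52, adjusted p = 1.833e-07). Leaving out 43M moved the WT value to 3.39, and leaving out 67M moved the KO value to 4.46.

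Cxcr2 (chr1:74153989-74161246, plus strand) was already well counted without UV. It stood at 17.9, 29.3 and 41.9 cpm in WT Control and 18.3, 26.7 and 41.1 cpm in WT UV, so that these groups covered the same range (log2 fold change 0.03 ± 0.21, 95% interval -0.40 to 0.45, adjusted p = 0.914). KO Control mice had 22.4, 32.7 and 62.1 cpm and KO UV mice 15.04, 23.3 and 37.4 cpm, and it fell in KO mice (-0.68 ± 0.21, adjusted p = 0.00527). In KO females alone the fall did not pass (-0.52, adjusted p = 0.130). Per kilobase of exon, the mean level in WT Control was 9.39 cpm for Cxcr2 and 8.39 for Lyz2, while none of the other 8 exceeded 1.27.

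The adhesion receptor Itgam (chr7:128062640-128118491, plus strand) encodes CD11b, the αM chain that pairs with β2. Levels were 1.43, 1.86 and 2.37 cpm in WT Control and 1.60, 2.61 and 6.53 cpm in WT UV, with overlap. KO Control mice had 1.66, 2.16 and 3.40 cpm and KO UV mice 2.18, 5.95 and 30.5 cpm, the last being 54F. The log2 fold change was 0.91 ± 0.32 in WT mice (adjusted p = 0.0144), not called without 77F (0.58, adjusted p = 0.0882). In KO mice it was 1.54 ± 0.33 (adjusted p = 0.000132), or 1.14 without 54F. WT females alone (0.65, adjusted p = 0.224) and KO males alone (0.48, adjusted p = 0.373) did not pass. An overlapping gene model on the same strand, Gm49368, shares 64.3% of the 100-base stretches of the Itgam transcripts, and reads in shared exons can be left out as ambiguous. Gm49368 had 3 reads in all 32 mice against 3808 for Itgam, so the Itgam counts may cover only a part of its reads.

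**Figure D2:**
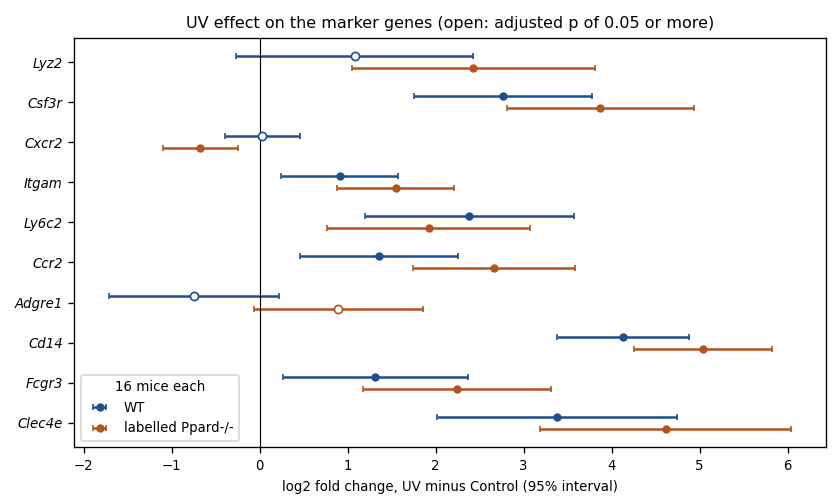
Log2 fold change of each marker after UV on the horizontal axis, in WT mice (blue) and mice labelled Ppard-/- (orange), 16 mice each, with 95% intervals from edgeR. Filled points have an adjusted p under 0.05, and the open points are Lyz2, Cxcr2 and Adgre1 in WT mice and Adgre1 in KO mice.

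The monocyte markers Ccr2 and Ly6c2 rose in both genotypes. Ccr2 (chr9:124101950-124113557, plus strand) encodes the receptor for CCL2 and CCL7. Its levels were 0.225, 0.924 and 1.43 cpm in WT Control and 1.08, 2.27 and 3.66 cpm in WT UV, where 7 of 8 UV mice lay above all Controls. In KO mice they were 0.319, 0.720 and 1.94 cpm in Control and 1.70, 5.43 and 24.3 cpm after UV, with 6 of 8 above all Controls. The log2 fold change was 1.35 ± 0.44 in WT mice (adjusted p = 0.00738) and 2.66 ± 0.45 in KO mice (adjusted p = 7.172e-06), or 2.30 without 54F. WT males alone did not pass (1.10, adjusted p = 0.125).

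Ly6c2 (chr15:75108158-75111970, minus strand) encodes one of the Ly6C proteins that mark classical monocytes. It was the scarcest marker, with 0 to 21 reads per WT Control mouse and 7 to 47 per WT UV mouse. No Control mouse exceeded 0.666 cpm, so it passed the filter through UV mice only. Its selection and its rise are therefore not independent. These are 0, 0.134 and 0.666 cpm in WT Control, 0.222, 0.509 and 1.32 cpm in WT UV, 0.0320, 0.169 and 0.286 cpm in KO Control and 0.295, 0.417 and 1.57 cpm in KO UV. The log2 fold change was 2.38 ± 0.58 in WT mice (adjusted p = 0.000614), or 3.25 without the Control mouse 69M, and 1.92 ± 0.56 in KO mice (adjusted p = 0.00350), or 1.53 without 54F (adjusted p = 0.0142). Within one sex the call was lost in WT females (0.85, adjusted p = 0.339) and KO males (1.65, adjusted p = 0.0742). In KO females it was lost without 54F (1.38, adjusted p = 0.138). Its near copy Ly6c1 shares 5.81% of the 100-base stretches and had a log2 fold change of 0.11 in WT mice (adjusted p = 0.825).

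The macrophage genes Lyz2 and Adgre1 did not pass the test in WT mice. Lyz2 (chr10:117277331-117282321, minus strand) encodes lysozyme M of granulocytes and macrophages. WT Control mice had 1.69, 6.82 and 43.3 cpm, WT UV mice 7.996, 17.1 and 46.9 cpm, KO Control mice 1.96, 5.76 and 55.5 cpm, and KO UV mice 10.9, 31.4 and 356 cpm. Single Control mice were as high as UV mice, namely 43M in WT and 44F in KO, and 54F was the highest of all. All 8 UV mice lay above the Control median in each genotype. The log2 fold change was 1.08 ± 0.66 in WT mice (adjusted p = 0.145), and 1.65 without 43M (adjusted p = 0.0310). In KO mice it was 2.43 ± 0.67 (adjusted p = 0.00224), 1.85 without 54F (adjusted p = 0.0120) and 3.25 without 44F. KO males alone did not pass (1.993, adjusted p = 0.06985), nor did KO females without 54F (1.68, adjusted p = 0.120).

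Adgre1 (chr17:57358691-57483527, plus strand) encodes F4/80, which Langerhans cells also carry. WT Control mice had 1.77, 3.32 and 6.68 cpm and WT UV mice 0.945, 1.88 and 5.12 cpm, with 7 of 8 UV mice below the Control median (log2 fold change -0.75 ± 0.47, adjusted p = 0.158). In an edgeR fit of the WT mice alone the fall passed (-0.75, adjusted p = 0.0410). KO Control mice had 1.10, 3.43 and 5.61 cpm and KO UV mice 1.10, 4.43 and 46.3 cpm (0.89 ± 0.47, adjusted p = 0.0910). The KO value was 0.16 without 54F and 1.06 without 66F, where it passed the test (adjusted p = 0.0406).

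Genes of other cell types were read beside the markers. Of all genes 34.5% rose and 36.5% fell in WT mice, and 37.3% rose and 33.5% fell in KO mice. Of 12 Langerhans cell genes, 10 fell and 0 rose in WT mice and 9 fell and 2 rose in KO mice, and Cd207 (langerin) fell by 1.70 on the log2 scale in WT mice (adjusted p = 4.325e-08). Their summed level was 759 to 1292 cpm in WT Control and 407 to 510 cpm in WT UV, and none of the 12 was at 0 in any mouse. Of 9 genes of all leukocytes, 3 fell and 0 rose in WT mice, a share near the 36.5% of all genes that fell, and Ptprc (CD45) fell by 1.04 on the log2 scale (adjusted p = 6.151e-05). In KO mice 6 of the 9 rose and 1 fell, or 4 and 1 without 54F. The 9 dermal fibroblast genes summed to 183 to 531 cpm in WT Control, 7.32 to 17.6 in WT UV, 116 to 547 in KO Control and 18.3 to 40.0 in KO UV other than 54F, with at most 2 of the 9 at 0 in a mouse. Postn had a mean of 4567 reads per mouse, against 535.7 for Col1a2 and 329.7 for Col1a1, with 54F included. It fell 46.1-fold in WT mice (adjusted p = 8.652e-11). Col1a2 and Col1a1 fell 8.253-fold and 8.175-fold there (adjusted p = 0.003959 and 0.003135). The sums are thus weighted towards Postn and do not show a fall in each of the 9 genes. Of 12 epidermal T cell genes, 9 fell and 2 rose in each genotype. Among genes of blood and vessels tested, 5 of 8 endothelial and 3 of 3 platelet genes rose in each genotype, and 0 of 4 red blood cell genes passed the test in either direction. The part of these shifts in the marker values was not tested.

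Other genes of monocytes and macrophages also rose. Of 24, 14 rose and 2 fell in WT mice, or 17 and 2 of the 23 tested without 54F, and 19 rose and 2 fell in KO mice, or 17 and 2 without it. With 54F included, 34.5% of all genes rose in WT mice and 37.3% in KO mice. Mrc1, the mannose receptor CD206, had 0.128, 0.366 and 0.913 cpm in WT Control and 4.14, 10.95 and 24.3 cpm in WT UV, a 31.2-fold rise (adjusted p = 3.743e-07). Lyve1, a hyaluronan receptor of lymphatic vessels and of some tissue macrophages, rose 17.8-fold (adjusted p = 3.929e-06). Fcgr1, the high-affinity IgG receptor, had 0 reads in 6 of 8 WT Control mice and 0.364 to 3.26 cpm in WT UV. Csf1r, the receptor of the macrophage growth factor, fell by 0.95 on the log2 scale in WT mice (adjusted p = 0.00813), and Cx3cr1, a chemokine receptor of resident myeloid cells, fell by 1.34 (adjusted p = 1.09e-05).

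Of 19 signalling and adaptor genes of myeloid cells, 18 were tested. In WT mice 5 rose and 5 fell, the rises led by Lilrb4a, Cd33 and Pirb and the falls including Coro1a and Tyrobp, while in KO mice 12 rose and 1 fell, or 10 and 1 without 54F. The WT shares were below those of all genes, of which 34.5% rose and 36.5% fell. In KO mice 37.3% of all genes rose and 33.5% fell. Of 17 partners of CD14 and Mincle in pattern recognition, 13 rose and 1 fell in WT mice and 16 rose and 1 fell in KO mice. Clec7a (Dectin-1) rose 10.7-fold (adjusted p = 4.576e-07) and Il1b, the cytokine released after such sensing, rose 10.2-fold in WT mice (adjusted p = 2.044e-09). Card9, the adaptor downstream of these lectins, fell by 2.34 on the log2 scale (adjusted p = 7.087e-09).

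Ligands of the marker receptors rose as well. Of 14 listed ligands 11 passed the filter, and 8 rose and 1 fell in WT mice and 9 rose in KO mice. Of all genes 34.5% rose and 36.5% fell in WT mice, and 37.3% rose in KO mice. Cxcl1, Ppbp, Ccl7 and Csf3 reached 1 cpm in UV mice only. They thus passed the filter through the group where they were high, which favours rises in the count. Among CXCR2 ligands, Cxcl1 was at 0.113, 0.282 and 0.802 cpm in WT Control and 14.4, 23.7 and 33.4 cpm in WT UV, with log2 fold changes of 6.01 ± 0.37 in WT and 6.17 ± 0.38 in KO mice (adjusted p = 5.393e-14 and 5.3e-14). Cxcl2 rose from a median of 0.225 to 7.66 cpm in WT mice (4.60 ± 0.46) and Cxcl3 from 0.205 to 8.52 cpm (5.03 ± 0.59), and both also rose in KO mice (5.82 and 6.58). Ppbp, a platelet chemokine, was at 0 to 0.110 cpm in WT Control and 0.182 to 2.80 cpm in WT UV, and KO Control mice held 3 reads of it in all. In every one of these genes the UV mice lay above all Control mice of their genotype. That holds for 21.3% of all genes in WT mice and for 18.6% in KO mice.

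The CCR2 ligand Ccl2 had 0.0371, 0.323 and 1.20 cpm in WT Control and 0.981, 1.29 and 3.83 cpm in WT UV (log2 fold change 2.28 ± 0.53, adjusted p = 0.000420), and it rose by 3.23 ± 0.55 in KO mice (adjusted p = 8.341e-06). Ccl7 rose by 3.23 ± 0.59 in WT mice (adjusted p = 2.066e-05) and by 3.79 ± 0.59 in KO mice (adjusted p = 1.932e-06). Ccl8 fell in WT mice, from a median of 4.42 to 1.15 cpm (-2.01 ± 0.75, adjusted p = 0.0181), a call lost without 56M (-1.63, adjusted p = 0.0556) and in females alone (-1.44, adjusted p = 0.246). In KO mice its log2 fold change was -0.50 with 54F (adjusted p = 0.547), -1.65 without it (adjusted p = 0.0285) and 0.19 without 44M. Csf3, the ligand of the CSF3 receptor, was at 0.0793 cpm at most in WT Control and 0.348, 1.32 and 1.96 cpm in WT UV (adjusted p = 1.383e-09). Icam1, which binds the αM/β2 integrin, rose by 1.79 ± 0.18 in WT mice (adjusted p = 8.414e-10). Cxcl5 and Ccl12 did not pass the filter. Of 8 further growth factors and vascular adhesion genes 5 were tested, of which Vcam1 rose in WT mice (1.40 ± 0.56, adjusted p = 0.0274) and Il34 (-2.73), Csf1 (-1.95) and Cx3cl1 (-0.73) fell.

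**Figure D3:**
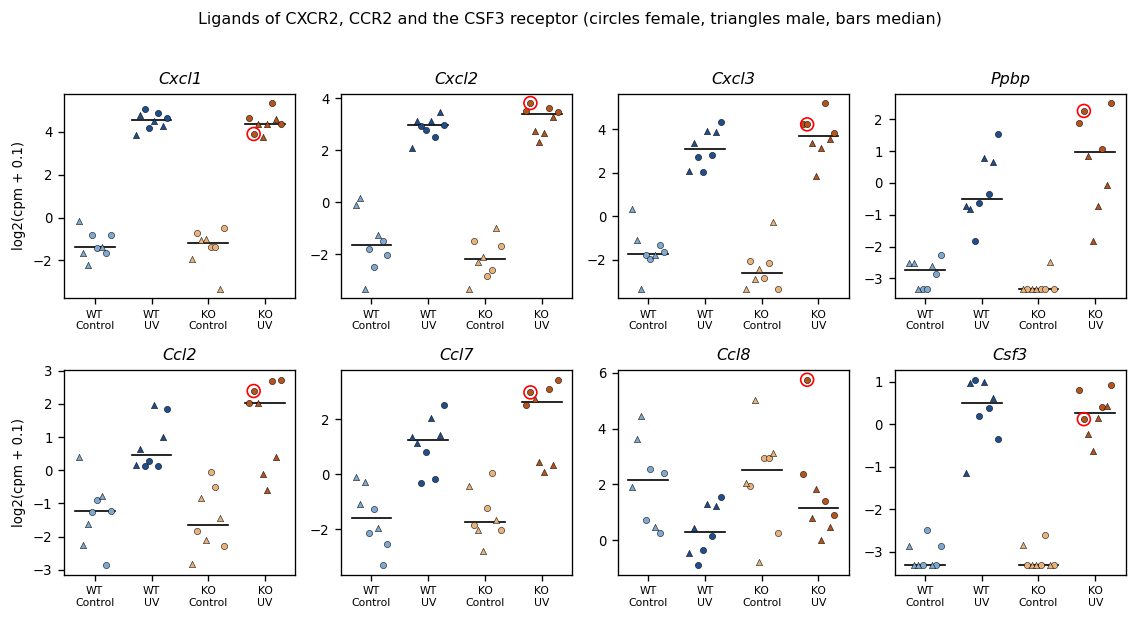
Level of Cxcl1, Cxcl2, Cxcl3, Ppbp, Ccl2, Ccl7, Ccl8 and Csf3 as log2 of cpm plus 0.1 (vertical axis) in the 4 groups of 8 mice (horizontal axis). Circles are females, triangles males, bars medians, and the red ring is mouse 54F. Cxcl1 moves from 0.802 cpm at most in WT Control to 14.4 cpm or more in WT UV, whereas Ccl8 shifts downward in WT mice.

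Among mice of the same sex, genotype and treatment, the markers varied together to different degrees. These correlations of log2 cpm over 32 mice, each taken as a deviation from the mean of its 4 mice, share the libraries and are descriptions only. Lyz2 and Cd14 followed the mean of the other 9 markers most closely (r = 0.851 and 0.836). Cxcr2 ran against it (r = -0.559), and Ly6c2 followed it weakly (r = 0.334). Without 54F the values were 0.832, 0.835, -0.542 and 0.251. The pairs Lyz2 with Clec4e (0.798) and Csf3r with Clec4e (0.797) were high, and Csf3r with Ly6c2 was near 0 (-0.0857). The genes of the whole table most like the mean of the markers were Ccl9 (0.921), Lrrc25 (0.869), Clec4d (0.864), Rab3il1 (0.864) and Zeb2 (0.862).

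**Figure D4:**
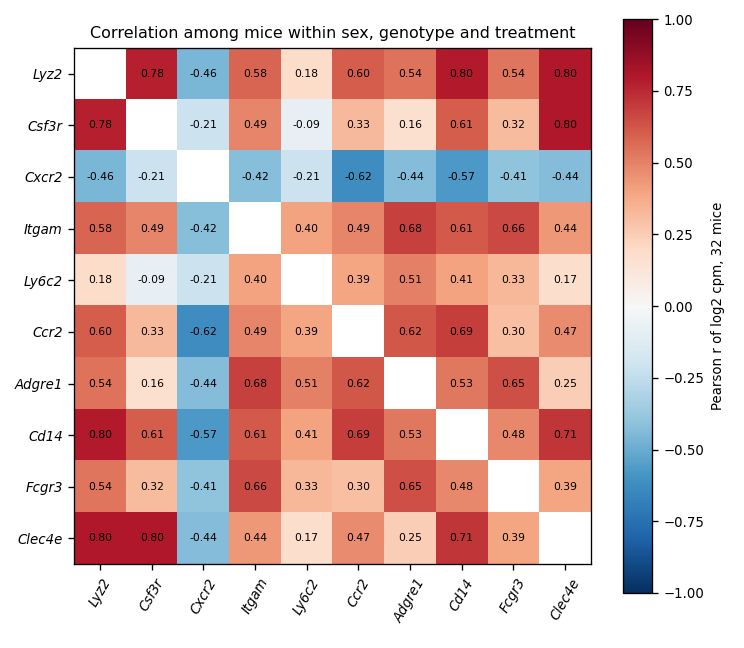
Pearson correlation of log2 cpm between each pair of markers (both axes) over 32 mice, after the mean of each sex, genotype and treatment was removed. Red is positive and blue negative, and the Cxcr2 row is negative against all other markers.

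KO and WT mice were then compared within each treatment. Without UV, 0 of the 10 markers differed between KO and WT mice by edgeR's test, where 0.206% of all genes did. At an unadjusted p under 0.05 there was 1 marker, Cxcr2, higher in KO Control (log2 fold change 0.45 ± 0.21, adjusted p = 0.558), and DESeq2 and limma called 0. The same counts over all genes were 1324 unadjusted, 78 by DESeq2 and 32 by limma. After UV, 0 markers differed by edgeR and 3.31% of all genes did. Here 6 markers had an unadjusted p under 0.05, DESeq2 called 2 (Ccr2 and Adgre1) and limma 0. Among all genes, 3121 of the 15546 tested had an unadjusted p under 0.05, DESeq2 called 1116 and limma 260. The marker estimates were 1.42 ± 0.43 for Ccr2 (adjusted p = 0.0613), 1.46 ± 0.48 for Adgre1 (0.0820), 0.91 ± 0.32 for Itgam (0.102) and 1.63 ± 0.65 for Lyz2 (0.156), all higher in KO UV mice. Without 54F they were 1.03, 0.70, 0.49 and 1.03, with adjusted p of 0.174, 0.353, 0.345 and 0.397. Of the 24 other monocyte and macrophage genes, 5 were higher in KO UV than in WT UV mice, and 0 of the 23 tested without 54F. Ccr2 passed without 52F (1.55, adjusted p = 0.0345) or without 59M (1.53, 0.0361), Adgre1 without 66F (1.62, 0.0454) and Itgam without 77F (1.24, 0.0250).

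The UV effect itself was not shown to differ between genotypes for any marker. By edgeR, the interaction of genotype and UV was called for 0 markers and for 0.765% of all genes. An unadjusted p under 0.05 was held by 3 markers and by 3042 of the 15546 genes tested. DESeq2 and limma called 0 markers, and 792 and 96 of all genes. The largest marker estimates of the interaction were 1.65 ± 0.67 for Adgre1 (adjusted p = 0.177), 1.35 ± 0.92 for Lyz2 (0.432) and 1.31 ± 0.61 for Ccr2 (0.236). That of Cxcr2 was -0.70 ± 0.29 (0.187). Without 54F the first 3 were 0.87, 0.74 and 0.91, and Lyz2 was 2.17 without 44F, none of which passed.

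Sexes were compared because each group held 4 females and 4 males. The interaction of sex and UV was called for 0 markers and for 0% of all genes in WT mice, and for 0 markers and 0% in KO mice, by edgeR's test. Over all genes the unadjusted counts were 419 and 1482, DESeq2 called 3 and 35, and limma called 0 and 0. Among markers, 1 in WT mice (Ly6c2, -3.06 ± 1.14) and 3 in KO mice had an unadjusted p under 0.05, of which Itgam had the smallest (2.13 ± 0.64 higher in females, adjusted p = 0.298). Without 54F it was 1.28 (adjusted p = 0.764), and the estimate for Adgre1 moved from 2.01 to 0.48.

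In females after UV the markers separated the genotypes in part. Cd14 was at 39.4 to 88.3 cpm in the 4 KO UV females and 10.1 to 19.8 cpm in the 4 WT UV females, with no overlap. Lyz2, Ccr2, Adgre1, Fcgr3 and Clec4e did not overlap between these females either, while Csf3r, Itgam, Ly6c2 and Cxcr2 did. The share of all genes without overlap in these females was not counted. Among males, Cd14 was at 10.4 to 30.8 cpm in KO and 10.2 to 43.5 cpm in WT mice. Of the 10 markers, 6 were higher in KO than WT females after UV (Lyz2, Itgam, Ccr2, Adgre1, Cd14 and Fcgr3, log2 fold changes of 2.05 to 3.11), where 8.12% of all genes were. In males 0 were higher, where 0.045% of all genes were. Without 54F, 0 of the 10 passed in females, where 1.27% of all genes were higher in KO. Cd14 was the nearest at 1.73 ± 0.46 (adjusted p = 0.0514), and Itgam was at 1.28 ± 0.40 (0.0814). The other 4 were then 1.92 for Lyz2, 1.39 for Ccr2, 1.5 for Adgre1 and 1.66 for Fcgr3. The difference between the sexes in this genotype effect was called for 0 markers and 0.122% of all genes by edgeR, with 6 markers at an unadjusted p under 0.05, 4 called by DESeq2 and 0 by limma. Counted over all genes, 2245 had an unadjusted p under 0.05, DESeq2 called 401 and limma 10. The difference between the sexes was 2.74 ± 0.63 for Cd14 (adjusted p = 0.0586), and 2.43 ± 0.63 without 54F (0.194).

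**Figure D5:**
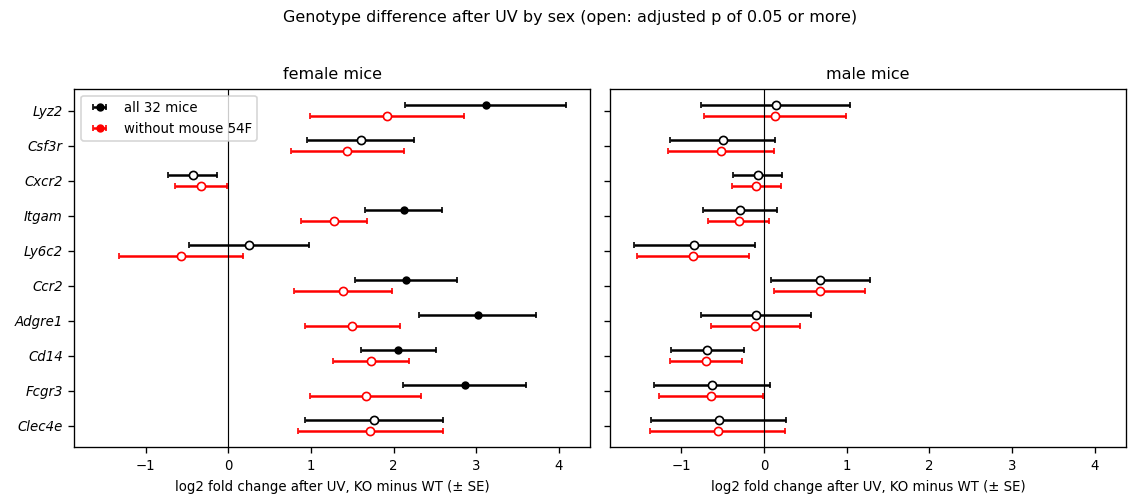
Log2 fold change of KO against WT mice after UV (horizontal axis, ± SE) for each marker, in females (left) and males (right), from all 32 mice (black) or without mouse 54F (red). Filled points have an adjusted p under 0.05, and all 6 of them are black points in females.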

How the data were processed

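Epidermal RNA of 32 mice was sequenced from poly(A) libraries that keep strand. The authors trimmed reads with Cutadapt 1.8, aligned them with STAR 2.5.3a and counted them per gene with HTSeq 0.9.1, and the deposited values are whole read counts without normalization. The submitters' processing notes name GRCm38, and the study's methods name a human build. The identifiers are those of mouse, so symbols and positions were taken from GENCODE M21 (GRCm38), which held 55141 of 55401 identifiers. Reads aligned more than once (31.4% to 38.8% of aligned reads) are not in the counts.

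Counts were TMM-scaled and fitted in edgeR 4.0.16 (quasi-likelihood, R 4.3.3) with a mean for each of 8 cells of sex, genotype and treatment. Contrasts were averaged over the sexes, and p-values were adjusted by Benjamini-Hochberg over 15546 genes. The study's methods used limma-trend, which was run as an alternative, with DESeq2 1.42.0, RLE scaling, other filters, designs without sex or within a genotype, each sex alone and each mouse left out. Cpm values use TMM-scaled totals. The scripts were tested on simulated data. The labels describe 1 library per mouse, and replicates were separate animals.

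Members and lists were chosen with earlier results of these data known. All members are named, with at most 3 genes per direction from each other list (adjusted p under 0.05 in WT mice, largest change, mean of at least 10 counts), the ligands of CXCR2 and CCR2, Csf3, Icam1 and the 5 genes most correlated with the members. Cd207, Ptprc, Elane, Ly6g, Ctsg, Prtn3, Camp, Ltf, Ngp and Ly6c1 were named after their values were seen.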

Additional observations from a re-analysis of the deposited data

Results flagged for a closer look

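In 44 groups of 8 mice (10 markers and Ppard in 4 groups), 12 had a highest mouse set apart by Dixon's test at the 95% level. The test assumes normally distributed values and was run on cpm without a log transform. The groups also share mice, so the 12 cannot be set against a number expected by chance. The flagged mice were 54F in KO UV, 43M in WT Control and 44F in KO Control.

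Mouse 54F was flagged for 6 markers. It had 356 cpm of Lyz2 against 113 in the next KO UV mouse, 30.5 of Itgam against 9.39, 1.57 of Ly6c2 against 0.663, 24.3 of Ccr2 against 8.68, 46.3 of Adgre1 against 7.89 and 47.6 of Fcgr3 against 11.1. The 10 markers summed to 647 cpm in it and to 256 in the next mouse. Its 9 dermal fibroblast genes summed to 2264 cpm and its 9 endothelial genes to 61.5 cpm, against 27.98 at most in the other KO UV mice. Their part in the marker levels was not tested. Cxcr2, Csf3r, Cd14 and Clec4e were not set apart in this mouse.

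Mouse 43M was flagged for 4 markers among WT Control mice. It had 43.3 cpm of Lyz2 against 13.4 in the next, 2.41 of Csf3r against 1.19, 2.44 of Cd14 against 1.19 and 3.03 of Clec4e against 1.14, and a marker sum of 80.9 against 53.1. Mouse 44F was flagged in KO Control for Lyz2 (55.5 against 16.2 cpm) and Fcgr3 (4.57 against 1.49 cpm).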

How the results depend on the processing

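Of the 10 markers, 7 were called after UV in WT mice and 9 in KO mice. In the other whole-sample settings (RLE, DESeq2, limma-trend, filterByExpr, no filter, a fold change over 1.5 as well, no sex in the design, and the mice of that genotype alone) 6 to 8 and 9 to 10 markers were called. The 8 in WT mice include Adgre1, which was called as a fall when the WT mice were fitted alone. Within one sex, 4 were called in WT females, and 5 in KO males. The genotype difference after UV had 0 calls in the main setting, 2 with DESeq2, 2 without sex in the design and 6 in females alone. That last count was 0 without 54F, a setting chosen after seeing the data. Over all genes the calls in females fell from 1540 of 15546 to 271 of 15157 when 54F was left out. With each mouse left out in turn, calls ranged from 5 to 8 for UV in WT mice (5 without 77F), from 9 to 10 for UV in KO mice and from 0 to 1 for the genotype difference after UV, and stayed at 0 for the genotype difference without UV, the interaction of genotype and UV and both interactions of sex and UV. Among genes of the other lists, Col1a1 and Col1a2 reversed in KO mice. With each mouse left out, their log2 fold changes ranged from -2.14 (without 54F) to 0.96 and from -2.07 (without 54F) to 1.23, and they were -2.75 and -2.87 in females alone without 54F. The cause was not tested. No paired analysis was possible because each label names a different animal and, where a number recurs across groups, the labels tie it to no shared litter, batch or day. The exact test planned for markers below the filter was not run, since all 10 passed. Ly6c2, with at most 54 reads in a mouse, is the marker that depth limits most.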
